A study of Mus musculus with 12 samples.

Results

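The 10 genes described here are the signalling chains of the T cell receptor (Cd3d, Cd3e, Cd3g and Cd247), the surface molecules Thy1, Cd2, Il2rb and Klrd1 of T cells and natural killer (NK) cells, and the granzymes Gzmb and Gzmc. They were followed in whole skin of AhR-deficient and AhR-heterozygous mice treated with imiquimod (IMQ) or left untreated. All 10 genes were measured, by 14 of the 34945 array probe sets that are annotated to a single gene, out of 18193 genes tested. Cd247 had 4 probe sets, Il2rb had 2 and the other genes had 1 each. Where a gene had several, the one with the highest mean over all arrays was used.

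The groups, with 3 arrays each, were AhR KO (Ahr-/-) skin on day 2 of IMQ treatment, untreated AhR KO skin, AhR HET (Ahr+/-) skin on day 2 of IMQ treatment, and untreated AhR HET skin. Ahr encodes the aryl hydrocarbon receptor, a ligand-activated transcription factor that is missing from all cells of the KO mice, and the HET littermates, which served as controls, carry a single working copy. IMQ, a TLR7 agonist, was applied as a cream to shaved back skin, and untreated mice received no cream, so the drug, the cream and its application cannot be told apart. The labels call the arrays biological replicates without naming the animals, so p-values measure only the spread between these arrays, and the age and sex of the mice are not given in the sources used here. The values are log2 signals, on which a difference of 1.00 is a doubling, and signals of different probe sets cannot be set against each other.

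CD3 chains carry the signal of the T cell receptor into the cell. Mouse epidermis holds a resident network of gamma delta T cells, the dendritic epidermal T cells, whose upkeep in mice is known to need AhR. The study, citing earlier work, states that Ahr-/- mice lack this epidermal population. The dermis holds further gamma delta and alpha beta T cells. Cytotoxic lymphocytes store granzymes, which are serine proteases, in granules together with perforin and release them into target cells. Several of these genes are not restricted to T cells: NK cells express Cd247, Cd2, Il2rb, Klrd1 and granzymes, fibroblasts can express Thy1, and mast cells can express Gzmb. In whole skin, fewer cells of a type and less RNA per cell cannot be told apart.

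The promoters of 4 members are shown because these genes moved most or are neighbours that moved unequally. The RefSeq table used (build GRCm38.p6) held promoters of 6 of the 10 members, namely Cd3d, Cd3e, Cd3g, Cd247, Gzmb and Gzmc. Each sequence is the 250 bases before the start that the promoter table uses, written 5′ to 3′ on the gene's strand, and capitals mark matches to the motifs named next. Cd3g and Cd3d lie beside each other on chromosome 9 and are transcribed away from each other, with 1354 bases between their starts and Cd3e beyond Cd3d. Gzmb and Gzmc lie beside each other on chromosome 14.
Cd3g, chr9:44980432-44980681, minus strand: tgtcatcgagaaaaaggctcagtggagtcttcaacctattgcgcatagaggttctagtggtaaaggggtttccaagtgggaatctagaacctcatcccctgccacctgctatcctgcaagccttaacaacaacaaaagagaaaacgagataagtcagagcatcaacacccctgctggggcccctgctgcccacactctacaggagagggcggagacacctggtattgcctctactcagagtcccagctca
Cd3d, chr9:44981536-44981785, plus strand: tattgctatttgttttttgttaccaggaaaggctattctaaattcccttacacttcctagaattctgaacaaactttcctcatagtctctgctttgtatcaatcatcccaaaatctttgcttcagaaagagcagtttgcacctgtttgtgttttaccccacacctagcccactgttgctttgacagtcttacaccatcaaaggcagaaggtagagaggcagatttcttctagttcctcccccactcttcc
Gzmb, chr14:56262335-56262584, minus strand: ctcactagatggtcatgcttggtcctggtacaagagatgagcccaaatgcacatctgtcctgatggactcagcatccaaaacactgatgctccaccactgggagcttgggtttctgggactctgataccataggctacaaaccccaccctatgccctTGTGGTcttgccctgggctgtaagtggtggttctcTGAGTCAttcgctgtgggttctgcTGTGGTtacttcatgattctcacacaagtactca
Gzmc, chr14:56234658-56234907, minus strand: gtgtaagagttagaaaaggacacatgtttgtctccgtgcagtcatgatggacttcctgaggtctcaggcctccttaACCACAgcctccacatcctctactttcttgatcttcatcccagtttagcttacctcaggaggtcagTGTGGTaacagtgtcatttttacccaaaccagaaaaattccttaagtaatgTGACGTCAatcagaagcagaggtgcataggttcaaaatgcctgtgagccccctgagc

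The 4 short motifs were searched on both strands. The core letters of the AhR site, GCGTG, occurred in none of the 6 member promoters and in 28.2% of all 32851 promoters of this length. The AP-1 motif TGANTCA, present in 6.75% of all promoters, occurred once, in Gzmb, 58 to 52 bases before the start. TGACGT, the core of a cAMP response element and present in 6.47% of promoters, matched Gzmc at a pair of overlapping positions between 57 and 50 bases before the start and Cd3e once. The RUNX motif TGTGGT, present in 14% of promoters, occurred 2 times in Gzmb and 2 times in Gzmc. The Cd3g and Cd3d windows held none of these letters. The annotated gene body can begin before the start of the promoter table: all 250 bases lay inside the annotated gene for Gzmc and Cd247, 17 bases for Cd3d and 52 for Cd3e, and none for Cd3g and Gzmb. These matches describe letters in a window and do not show that a factor binds there.

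Before the results, some arrays stood apart. On AhR HET untreated replicate 2 the mean signal of 4 keratin markers of growing hair follicles was 12.45, against 5.57 to 8.12 on the other 11 arrays. All 10 members had their lowest value of that group on this array, where 34.3% of all genes did so. AhR KO IMQ replicates 1 and 2 had a 3′ minus 5′ difference of the Gapdh control probe sets, a sign of RNA quality, of 1.17 and 1.52, against 0.14 to 0.53 on the other 10 arrays. For the members and for the called genes of the related lists, calls that were lost without these arrays are given with the results. The signal of the targeted gene Ahr did not separate the genotypes, with 9.74, 9.07 and 9.87 in AhR KO IMQ, 11.37, 11.29 and 11.44 in AhR KO untreated, 9.79, 10.26 and 10.27 in AhR HET IMQ, and 11.30, 10.11 and 11.12 in AhR HET untreated skin. Whether its probe set lies in the deleted part was not determined, so it does not check the genotype labels.

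**Figure D1:**
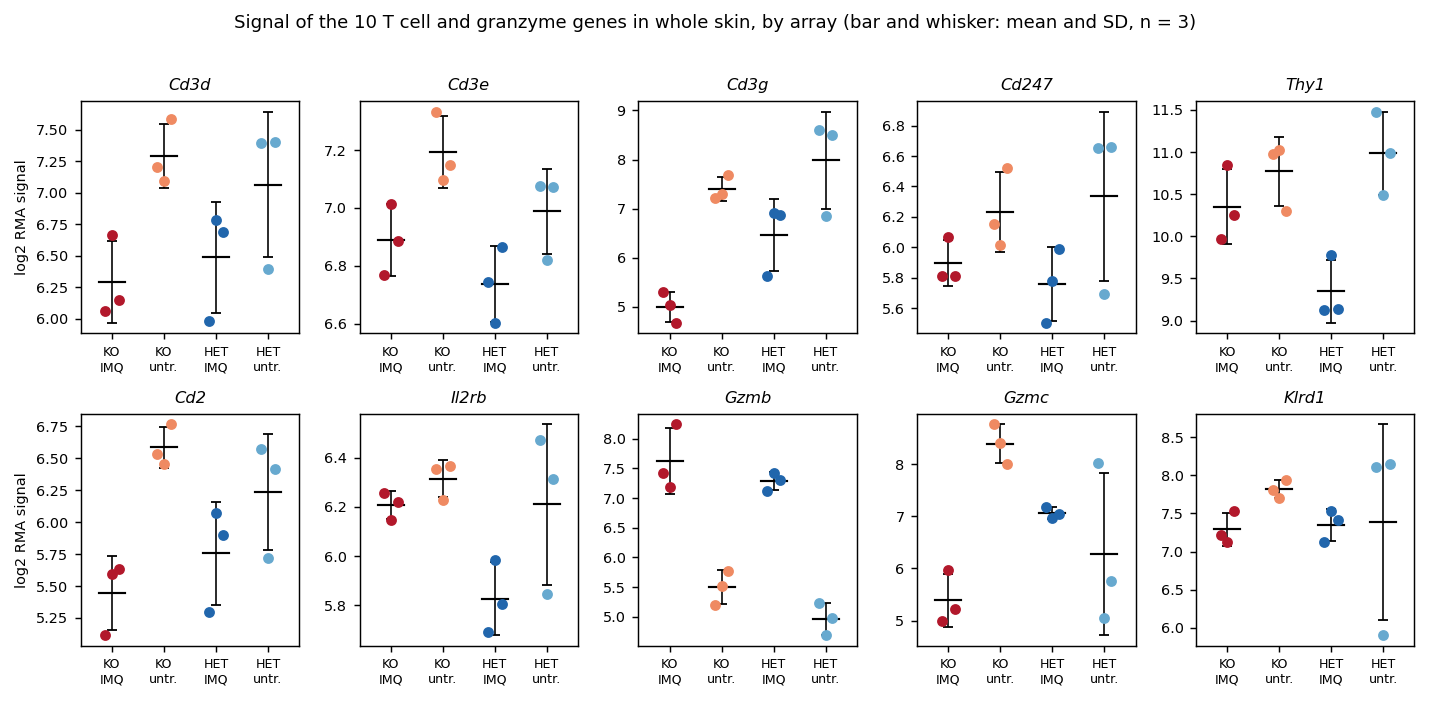
Log2 RMA signal (vertical axes, one scale per gene) of the 10 genes on each array (points), by genotype and treatment (horizontal axes), with the mean and SD of 3 arrays as bar and whisker. Gzmb lies higher in both IMQ groups than in both untreated groups, Cd3g lies lowest in AhR KO IMQ skin, and Gzmc lies highest in AhR KO untreated skin.

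The first question was how IMQ moved these genes in AhR-deficient skin. In AhR KO skin, Gzmb rose 4.35-fold while Gzmc, Cd3g, Cd2 and Cd3d fell by between 2.00-fold and 8.00-fold. A gene is called here when limma gave an adjusted p under 0.05, adjusted over all 18193 genes by Benjamini-Hochberg, and the fold change was at least 1.5. By this rule 1 of the 10 members was called higher and 4 lower, where 10.6% of all genes were called higher and 12.1% lower. The groups did not overlap for 7 members, against 42.7% of all genes. The median log2 difference of the members was -0.47, beside 0.07 for all genes.

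Among the CD3 chains, Cd3g, which forms a pair with the epsilon chain, had signals of 5.29, 5.03 and 4.67 in AhR KO IMQ skin, against 7.22, 7.31 and 7.68 in AhR KO untreated skin. Every IMQ array lay below every untreated array, and these 3 arrays also lay below all the other arrays of the study. The log2 difference was -2.40 (standard error 0.44, 5.28-fold lower, adjusted p = 0.00169 from limma). Cd3d, the delta chain, which also pairs with epsilon, had 6.07, 6.67 and 6.15 in AhR KO IMQ skin, against 7.20, 7.10 and 7.58 in AhR KO untreated skin. Its difference was -0.998 (standard error 0.29, adjusted p = 0.0234 from limma), and these groups did not overlap either. The Cd3d call did not survive the loss of 1 array in 4 cases: limma's adjusted p was 0.0862 when AhR KO IMQ replicate 1 was left out and 0.0654 for replicate 3 of that group, and it was 0.0539 when AhR KO untreated replicate 1 was left out and 0.0764 for replicate 3.

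The other CD3 chains did not pass the test in AhR KO skin. Cd3e, the epsilon chain, had 6.77, 7.01 and 6.89 in AhR KO IMQ skin and 7.33, 7.10 and 7.15 in AhR KO untreated skin. Its difference of -0.30 (95% interval -0.60 to -0.01, adjusted p = 0.123 from limma) was small, although the groups did not overlap. Cd247, the zeta chain, which carries most of the signalling motifs of the complex, had 5.81, 6.07 and 5.81 in AhR KO IMQ skin and 6.16, 6.02 and 6.52 in AhR KO untreated skin, and these ranges overlapped. Its difference was -0.33 (95% interval -0.87 to 0.20, adjusted p = 0.348 from limma). The other 3 probe sets of Cd247, with signals between 3.50 and 4.78, were not called in any comparison.

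Cd2, an adhesion receptor of T and NK cells, had 5.12, 5.59 and 5.63 in AhR KO IMQ skin, against 6.54, 6.46 and 6.77 in AhR KO untreated skin. The arrays did not overlap, and the difference was -1.14 (standard error 0.25, 2.20-fold lower, adjusted p = 0.00517 from limma). Thy1, a glycoprotein anchored to the surface of mouse T cells, had 9.96, 10.84 and 10.25 in AhR KO IMQ skin and 10.98, 11.03 and 10.30 in AhR KO untreated skin. These values overlapped, with a difference of -0.42 (95% interval -1.07 to 0.24, adjusted p = 0.34 from limma). Il2rb, the beta chain shared by the receptors for IL-2 and IL-15, had 6.26, 6.14 and 6.22 in AhR KO IMQ skin and 6.35, 6.23 and 6.36 in AhR KO untreated skin, a difference of -0.11 (95% interval -0.46 to 0.24). Klrd1, or CD94, the partner of NKG2 receptors, had 7.22, 7.12 and 7.54 in AhR KO IMQ skin, against 7.80, 7.71 and 7.94 in AhR KO untreated skin. The Klrd1 arrays did not overlap, but the difference of -0.53 had a 95% interval of -1.49 to 0.44 and did not pass (adjusted p = 0.419 from limma), with the spread estimated over all 4 groups, AhR HET untreated replicate 2 included.

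The granzymes moved in opposite directions in AhR KO skin. Gzmb, which cleaves caspases in target cells, had 7.43, 7.19 and 8.25 in AhR KO IMQ skin, against 5.20, 5.51 and 5.77 in AhR KO untreated skin. All treated arrays lay above all untreated ones, with a difference of 2.12 (standard error 0.25, 4.35-fold higher, adjusted p = 9.64e-05 from limma). Gzmc, a granzyme of the same cluster in mice, had 4.99, 5.96 and 5.22 in AhR KO IMQ skin, against 8.76, 8.40 and 8.01 in AhR KO untreated skin. Here all treated arrays lay below all untreated ones, with a difference of -3.00 (standard error 0.56, 8.00-fold lower, adjusted p = 0.00202 from limma).

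The part of the Gapdh 3′ minus 5′ difference in these values was not tested, but it could be entered as a covariate. With it, Gzmb (2.64, adjusted p = 0.000151), Gzmc (-3.16, adjusted p = 0.0234) and Cd3g stayed called by limma, and Cd3d (-1.27, adjusted p = 0.0537) and Cd2 (-1.10, adjusted p = 0.0599) did not. With AhR KO IMQ replicate 3 as the sole array of its group, assumed to vary like the other groups, Gzmb (2.75, adjusted p = 0.00063) and Cd3g stayed called and Gzmc (-3.17, adjusted p = 0.0523), Cd3d (-1.14, adjusted p = 0.143) and Cd2 (-0.96, adjusted p = 0.147) did not. Over all genes the called share was 22.7% with all arrays and no covariate, 12.2% with the covariate and 7.94% with the sole array.

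The same question in AhR HET skin gave fewer calls. Gzmb rose 4.98-fold, and Thy1 and Cd3g fell 3.11-fold and 2.86-fold, while none of the remaining members passed the test. Thus 1 member was called higher and 2 lower, where 5.22% of all genes were called higher and 3.83% lower. The groups did not overlap for 2 members, Gzmb and Thy1, against 29.8% of all genes. The median log2 difference was -0.43, beside -0.01 for all genes.

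Gzmb had 7.13, 7.42 and 7.30 in AhR HET IMQ skin, against 5.23, 4.69 and 4.98 in AhR HET untreated skin. The difference was 2.32 (standard error 0.25, adjusted p = 0.00015 from limma), with no overlap. Thy1 had 9.13, 9.78 and 9.13 in AhR HET IMQ skin, against 11.48, 10.49 and 10.99 in AhR HET untreated skin. The treated arrays were all lower, with a difference of -1.64 (adjusted p = 0.00519 from limma, standard error 0.30). Cd3g had 5.62, 6.91 and 6.88 in AhR HET IMQ skin, against 8.61, 6.84 and 8.50 in AhR HET untreated skin, and here untreated replicate 2 lay within the range of the treated arrays. Its difference of -1.51 (adjusted p = 0.0464 from limma, standard error 0.44) was called when 1 array was left out only without AhR HET untreated replicate 2, and without the other arrays its adjusted p lay between 0.0567 and 0.188. It was also lost with the Gapdh covariate (adjusted p = 0.0849) and with AhR KO IMQ replicate 3 as the sole array of its group (adjusted p = 0.0821 from limma).

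Replicate 2 also bore on the members that were not called in AhR HET skin. Cd3d had 5.98, 6.79 and 6.69 in AhR HET IMQ skin and 7.39, 6.40 and 7.40 in AhR HET untreated skin, Cd247 had 5.50, 5.78 and 5.99 in AhR HET IMQ skin and 6.65, 5.69 and 6.66 in AhR HET untreated skin, and Cd2 had 5.30, 6.07 and 5.90 in AhR HET IMQ skin and 6.58, 5.72 and 6.42 in AhR HET untreated skin. In each of the 3, untreated replicate 2 fell among the treated arrays. Klrd1 had 7.12, 7.53 and 7.41 in AhR HET IMQ skin and 8.11, 5.90 and 8.14 in AhR HET untreated skin, where replicate 2 was the lowest of all 12 arrays. Without AhR HET untreated replicate 2, 13.4% of all genes were called in either direction, against 9.05% with it, and 7 members were called by limma: Gzmb (2.18, adjusted p = 0.000254), Thy1 (-1.89, adjusted p = 0.00141), Cd3g (-2.08, adjusted p = 0.00134), Cd247 (-0.90, adjusted p = 0.00733), Klrd1 (-0.77, adjusted p = 0.0103), Cd3d (-0.91, adjusted p = 0.0304) and Cd2 (-0.74, adjusted p = 0.0483). The array was not left out of the main values, because no label sets it apart.

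Cd3e had 6.74, 6.60 and 6.87 in AhR HET IMQ skin and 7.08, 6.82 and 7.07 in AhR HET untreated skin, a difference of -0.25 (95% interval -0.55 to 0.05). Il2rb had 5.69, 5.98 and 5.81 in AhR HET IMQ skin and 6.47, 5.84 and 6.31 in AhR HET untreated skin, a difference of -0.38 (adjusted p = 0.163 from limma). The second Il2rb probe set, with signals of 5.13 to 6.01, was not called in any comparison. Its differences were 0.23 in the AhR KO response and 0.04 in the AhR HET response, opposite in sign to those of the main probe set. Gzmc had 7.18, 6.96 and 7.05 in AhR HET IMQ skin, and 8.03, 5.05 and 5.75 in AhR HET untreated skin. The treated arrays were close to each other and the untreated ones were far apart, and the difference of 0.78 (adjusted p = 0.437 from limma, standard error 0.56) did not pass. Without AhR HET untreated replicate 1 it was 1.66 and called (adjusted p = 0.00548), without replicate 2 it was 0.17 (adjusted p = 0.883) and without replicate 3 it was 0.52 (adjusted p = 0.734), each with an untreated group of 2 arrays.

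**Figure D2:**
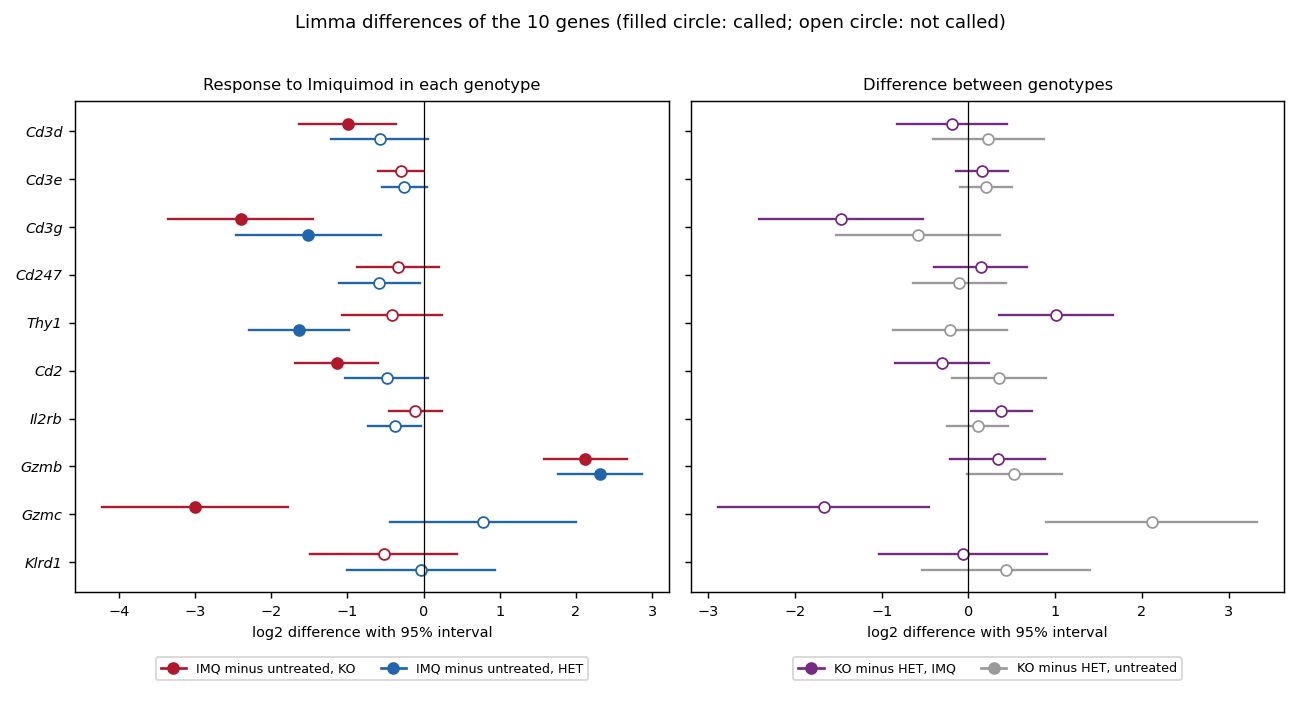
Log2 differences (horizontal axes) with 95% intervals from limma for the 10 genes (vertical axis). The left panel shows IMQ minus untreated skin in AhR KO (red) and AhR HET (blue), the right panel AhR KO minus AhR HET in IMQ (purple) and untreated (grey) skin, and filled circles mark called genes. The responses of Gzmb nearly coincide, those of Gzmc lie on opposite sides of 0, and no circle on the right is filled.

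The next question was whether the response to IMQ differed between the genotypes, tested as the difference of the 2 responses, AhR KO minus AhR HET. Gzmc alone was called, with -3.78 (standard error 0.79, 95% interval -5.50 to -2.06, adjusted p = 0.0409 from limma), where 1.32% of all genes were called in either direction. The call held when AhR HET untreated replicate 1 (-4.66, adjusted p = 0.000974), AhR HET untreated replicate 2 (-3.17, adjusted p = 0.0379) or AhR KO IMQ replicate 3 (-3.69, adjusted p = 0.0478) was left out. Without any other single array it was lost, with differences between -4.07 and -3.52 and adjusted p between 0.0513 and 0.115. With the Gapdh covariate it was -3.98 (adjusted p = 0.299), and with AhR KO IMQ replicate 3 as the sole array of its group -3.95 (adjusted p = 0.267). The direction did not change in any of these. The share of all genes called in this comparison was between 0.17% and 5.18% when 1 array was left out, 0.066% with the Gapdh covariate and 0.0989% with AhR KO IMQ replicate 3 as the sole array.

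For Gzmb the difference of responses was -0.19 with a 95% interval of -0.97 to 0.58 (adjusted p = 0.82 from limma), an interval that holds both weaker and stronger responses in AhR KO skin. Thy1 fell in AhR HET and did not pass in AhR KO skin, but the difference between these responses, 1.22 (95% interval 0.29 to 2.15, adjusted p = 0.169 from limma), was not called. Nor was that of Cd3g, -0.89 (95% interval -2.23 to 0.45), of Cd2, -0.66 (95% interval -1.43 to 0.11), or of Cd3d, -0.42 (95% interval -1.32 to 0.48). The remaining members, Cd3e, Cd247, Il2rb and Klrd1, lay between -0.49 and 0.27.

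On day 2 of IMQ no member was called between AhR KO and AhR HET skin, where 3.98% of all genes were. That share was between 1.08% and 7.07% when 1 array was left out, 0.148% with the Gapdh covariate and 0.236% with AhR KO IMQ replicate 3 as the sole array of its group. These comparisons share arrays with the responses above, so they are not independent of them. The groups did not overlap for 4 members, Cd3g, Gzmc, Thy1 and Il2rb, against 33% of all genes, and these 4 also had an unadjusted p under 0.05. Cd3g was lower in the AhR KO IMQ arrays than in the AhR HET IMQ arrays by -1.47 on the log2 scale (adjusted p = 0.0811 from limma, standard error 0.44), and Gzmc by -1.67 (adjusted p = 0.114, standard error 0.56). Thy1 differed by 1.01 (adjusted p = 0.0835 from limma, standard error 0.30) and Il2rb by 0.38 (adjusted p = 0.203, standard error 0.16), both upward in AhR KO. Calls by limma appeared without AhR HET untreated replicate 2 for Cd3g (adjusted p = 0.0119), Gzmc (adjusted p = 0.04) and Thy1 (adjusted p = 0.042), without AhR HET untreated replicate 1 for Gzmc (adjusted p = 0.00571), and without AhR HET IMQ replicate 1 for Cd3g (-1.89, adjusted p = 0.0264). Gzmb differed by 0.34 (95% interval -0.21 to 0.88).

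In untreated skin no member was called between AhR KO and AhR HET, and over all genes the share called was 0.0055%. Gzmc had the largest difference of the members, 2.11 (standard error 0.56, 95% interval 0.89 to 3.33, adjusted p = 0.717 from limma), and the only unadjusted p under 0.05 (0.00258). Its 8.76, 8.40 and 8.01 in AhR KO untreated skin overlapped with AhR HET untreated skin through AhR HET untreated replicate 1 alone, which had 8.03, against 5.05 and 5.75 on the other 2 arrays of that group. Without AhR HET untreated replicate 1 the difference was 2.99 and called (adjusted p = 0.00251), in a fit that called 1.13% of all genes. Without replicate 2 of that group it was 1.497 (adjusted p = 1) and without replicate 3 it was 1.85 (adjusted p = 0.657). The groups did not overlap for 1 member, Cd3e, with a difference of 0.20 (95% interval -0.09 to 0.50), against 8.81% of all genes. The other differences lay between -0.58 for Cd3g and 0.53 for Gzmb, and their 95% intervals all included 0.

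Other granzyme genes were read beside Gzmb and Gzmc. On chromosome 14 the order is Gzme, Gzmd, Gzmg, Gzmf, Gzmc, Gzmb. Gzmd, Gzme, Gzmf and Gzmg stayed between 2.32 and 3.73 on all 12 arrays and were not called in any comparison. Gzma, a tryptase of cytotoxic cells encoded on chromosome 13 beside Gzmk, had 9.38, 8.81 and 10.05 in AhR KO IMQ skin, against 6.07, 6.21 and 6.27 in AhR KO untreated skin, and 8.89, 8.82 and 8.53 in AhR HET IMQ skin, against 5.92, 5.93 and 5.80 in AhR HET untreated skin. Both treated groups lay above both untreated groups. It rose by 3.23 in AhR KO (adjusted p = 3.19e-06) and by 2.86 in AhR HET skin (adjusted p = 1.93e-05, both from limma). Prf1, perforin, which opens the target membrane to granzymes, had differences of 0.15 in AhR KO and -0.21 in AhR HET skin, neither of which passed, and Gzmk and Gzmm did not pass either.

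**Figure D3:**
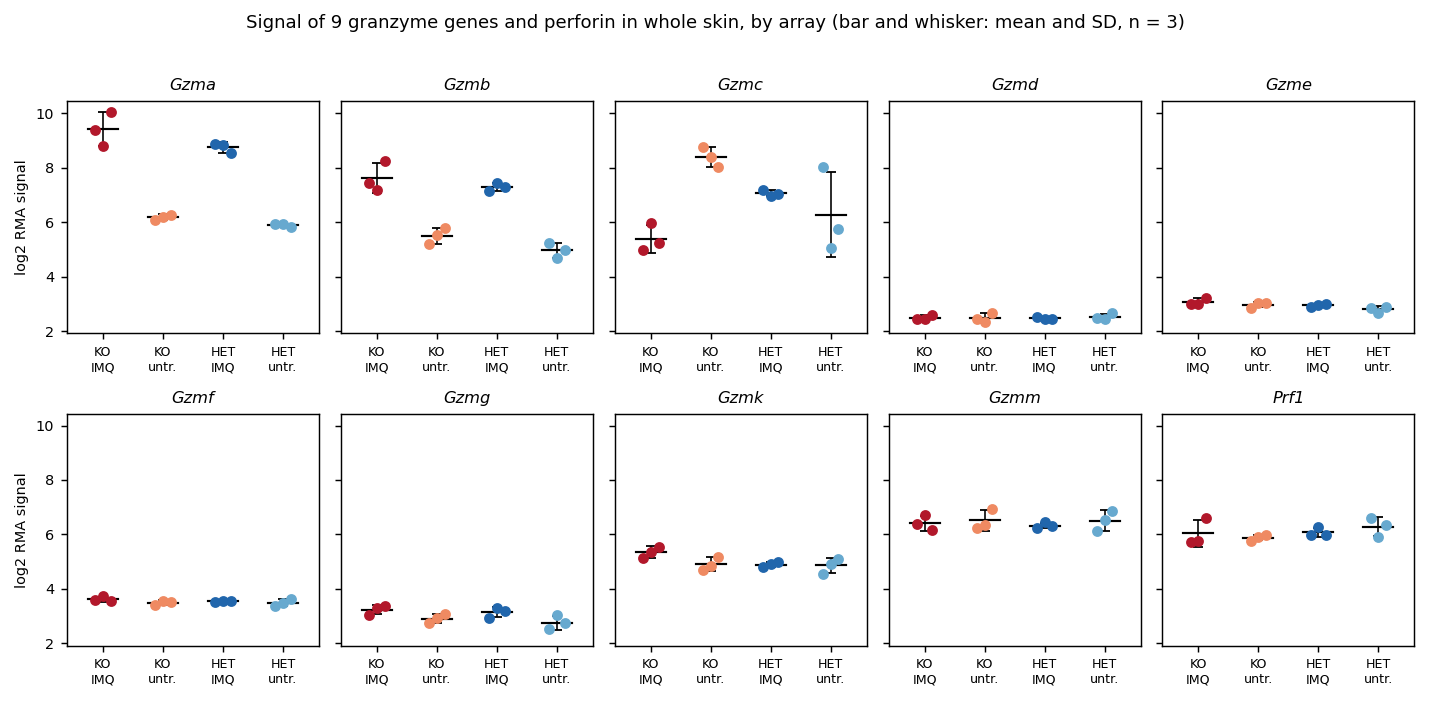
Log2 RMA signal (vertical axes) of 9 granzyme genes and Prf1 on each array (points), by genotype and treatment (horizontal axes), with the mean and SD of 3 arrays as bar and whisker. The panels share a scale so that changes can be compared, while heights of different probe sets cannot. Gzma and Gzmb are higher in both IMQ groups, Gzmc falls in AhR KO IMQ skin, and Gzmd, Gzme, Gzmf and Gzmg stay between 2.32 and 3.73.

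Of the 14 other granule genes measured, 2 were called higher and 1 lower in the AhR KO response, and 1 higher in the AhR HET response. Over all genes 10.6% were called higher and 12.1% lower in the AhR KO response, and 5.22% and 3.83% in the AhR HET response. List counts near these shares, here and below, do not set a list apart from other genes. Srgn, the proteoglycan core that holds granule proteins in lymphocytes and also in myeloid and mast cells, had a difference of 2.58 in the AhR KO response (adjusted p = 0.000161), and it was higher in AhR KO than in AhR HET skin under IMQ by 2.38 (adjusted p = 0.00226, both from limma). Ctsw, the lymphocyte protease cathepsin W, fell by 1.25 in AhR KO skin (adjusted p = 0.00464). Neutrophil markers were read beside Srgn: the mean of 4 genes was 12.30 to 12.34 in AhR KO IMQ, 6.41 to 6.85 in AhR KO untreated, 10.70 to 11.52 in AhR HET IMQ, and 6.46 to 6.65 in AhR HET untreated skin. In AhR KO IMQ skin S100a8 and S100a9, which are among them, lay at 14.64 to 14.92. The highest signal of any probe set on those arrays was 14.80 to 14.92, so the mean can understate a difference. Csf3r rose by 3.69 in AhR KO and by 1.17 in AhR HET skin, and Cxcr2 by 3.00 and 1.48. The part of the neutrophil markers in the Srgn values was not tested. The mean of 6 mast cell markers was 7.03 to 7.31 in AhR KO IMQ, 7.70 to 8.11 in AhR KO untreated, 7.36 to 7.58 in AhR HET IMQ, and 7.12 to 8.13 in AhR HET untreated skin. In the AhR KO response 3 of these 6 were called lower and none higher, and in the AhR HET response none was called. With the Gapdh covariate these 3 lost their calls by limma. They were Cpa3 (-0.91, adjusted p = 0.149), Mcpt4 (-1.44, adjusted p = 0.0851) and Ms4a2 (-0.98, adjusted p = 0.0857). The part of mast cells in the Gzmb values was not tested.

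The T cell receptor chains pair with the CD3 chains and recognise the antigen. Of 10 measured genes of such chains, 1 was called lower in the AhR KO response, where 12.1% of all genes were, and none in any other comparison. It was Trav9d-3, an alpha chain variable segment, with a difference of -1.05 (adjusted p = 0.00196 from limma). The 3 co-receptor genes were not called anywhere. Cd4 had differences of 0.05 in AhR KO and -0.15 in AhR HET skin, and Cd8a of 0.15 in AhR KO and 0.07 in AhR HET skin.

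Among 21 measured genes of T cell receptor signalling, 1 was called higher and 4 lower in the AhR KO response, and 2 higher and 1 lower in the AhR HET response. The shares over all genes were 10.6% higher and 12.1% lower in the AhR KO response, and 5.22% and 3.83% in the AhR HET response. Trat1, an adaptor that stabilises the receptor complex, fell by 1.41 (adjusted p = 0.00965 from limma) and Rasgrp1, which activates Ras behind the receptor, by 1.36 (adjusted p = 0.00836) in AhR KO skin. Fyn, a Src-family kinase of T cells and many other cells, fell by 0.90 (adjusted p = 0.00691). Lcp2, the adaptor SLP-76, which myeloid cells also express, rose in both genotypes, by 1.46 in AhR KO (adjusted p = 0.00569) and by 1.16 in AhR HET skin (adjusted p = 0.0422). In AhR HET skin Cd5, an inhibitory receptor of T cells, rose by 1.08 (adjusted p = 0.00154) and Sit1, another adaptor, fell by 0.63 (adjusted p = 0.0464). No gene of this list was called between the genotypes.

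Genes of epidermal residence were read alongside. Of 5 measured, 1 was called higher and 2 lower in the AhR KO response and none in the AhR HET response. Over all genes 10.6% were called higher and 12.1% lower in the AhR KO response, and 9.05% in either direction in the AhR HET response. Itgae, the CD103 integrin chain that ties T cells to E-cadherin of keratinocytes, had 6.06, 5.75 and 5.10 in AhR KO IMQ skin, against 7.67, 7.89 and 7.87 in AhR KO untreated skin, and 6.24, 6.63 and 6.69 in AhR HET IMQ skin, against 7.53, 5.69 and 7.44 in AhR HET untreated skin. It fell by 2.17 in AhR KO skin (adjusted p = 0.00184 from limma), without overlap, while AhR HET untreated replicate 2 again lay apart from the other 2 arrays of its group. Xcl1, a chemokine of activated T and NK cells, fell by 0.69 in AhR KO skin (adjusted p = 0.00282). Cd69, which marks activation as well as residence and is also made by myeloid cells, rose by 1.71 in AhR KO skin (adjusted p = 0.000206) and was higher in AhR KO than in AhR HET skin under IMQ by 1.72 (adjusted p = 0.00177).

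Of 9 measured NK-type receptors and adaptors, 2 were called higher in the AhR KO response, where 10.6% of all genes were, and none in the AhR HET response. They were Hcst (1.00, adjusted p = 0.000868 from limma) and Tyrobp (0.99, adjusted p = 0.0498), the adaptors DAP10 and DAP12, which myeloid cells also use, and Hcst was higher in AhR KO than in AhR HET skin under IMQ (1.22, adjusted p = 0.0021). Klrc1, which encodes the NKG2A partner of Klrd1, was not called. The NK cell markers Ncr1 and Eomes were not called in any comparison. Of 6 measured genes of the IL-2 and IL-15 axis, Il15, the ligand of Il2rb (-0.73, adjusted p = 0.0296), and Il7, a survival factor for T cells (-1.04, adjusted p = 0.0264), were called lower in the AhR KO response and none in the AhR HET response. Of 5 measured genes of IL-17 type gamma delta T cells, the transcription factor gene Sox13 was called lower in the AhR HET response (-0.59, adjusted p = 0.0125), and none elsewhere. Of 8 T cell transcription factors, 2 were called lower in the AhR KO response, Gata3 (-2.69, adjusted p = 2.71e-05 from limma) and Bcl11b (-0.61, adjusted p = 0.00828). Gata3, which keratinocytes also express, was the 1 called in the AhR HET response, also lower (-1.75, adjusted p = 0.0016). No gene of these lists was called between the genotypes in untreated skin. Over all genes 12.1% were called lower in the AhR KO response and 3.83% in the AhR HET response.

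The called genes of the related lists were also read without the arrays that stood apart, a check chosen after the data were seen, and no direction changed. Over all genes, the called shares were 22.7% in the AhR KO response, 9.05% in the AhR HET response and 3.98% between the genotypes under IMQ. In the AhR KO response 18 genes of the related lists were called, and all 18 stayed called by limma without AhR HET untreated replicate 2. With the Gapdh covariate 11 stayed called, and Trat1, Rasgrp1, Fyn, Cd28, Tyrobp, Il15 and Il7 did not. With AhR KO IMQ replicate 3 as the sole array of its group 5 stayed called, Gzma, Srgn, Itgae, Cd69 and Gata3. Of the 3 called between AhR KO and AhR HET skin under IMQ, Cd69 stayed called in each of these fits, while Srgn and Hcst lost their calls with the covariate and with the sole array. Of the 6 called in the AhR HET response, Lcp2 and Sox13 lost their calls without AhR HET untreated replicate 2, Lcp2, Sit1 and Sox13 with the covariate, and Lcp2 and Sit1 with the sole array.

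The members varied together across arrays to different degrees. Over the 12 arrays Cd3d followed Cd2 (Pearson's r = 0.958), Cd247 (0.886) and Cd3g (0.849), and with group means removed these were 0.913, 0.932 and 0.875. Gzmb ran against the other members, between -0.786 with Cd3g and -0.074 with Klrd1, but with group means removed it lay between -0.093 and 0.551. These values describe 12 arrays that share AhR HET untreated replicate 2, and no test was made.

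The 5 genes most like the mean of the 4 CD3 chains over the 12 arrays were Trat1 (Pearson's r = 0.977), Tppp3 (0.976), Hhatl (0.974), Gm32219 (0.97) and Ampd1 (0.964). Trat1 is a T cell gene, while Hhatl and Ampd1 are known for their expression in striated muscle. Trat1 had 4.57, 4.50 and 4.65 in AhR KO IMQ, 5.79, 5.74 and 6.42 in AhR KO untreated, 4.58, 5.20 and 5.14 in AhR HET IMQ, and 6.63, 5.04 and 6.43 in AhR HET untreated skin, so that AhR HET untreated replicate 2 and AhR HET IMQ replicate 1 were the lowest of their groups, as for the CD3 mean. All 5 were called lower in the AhR KO response, and 2 of them in the AhR HET response, Gm32219 (-0.78, adjusted p = 0.0255) and Ampd1 (-1.75, adjusted p = 0.0214 from limma). The 5 were picked by likeness to the CD3 mean on these same arrays, so a fall where that mean fell follows from the choice. These calls are therefore no separate result. In the AhR KO response Gm32219 and Ampd1 stayed called with the Gapdh covariate and Ampd1 with AhR KO IMQ replicate 3 as the sole array, and the others did not.

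**Figure D4:**
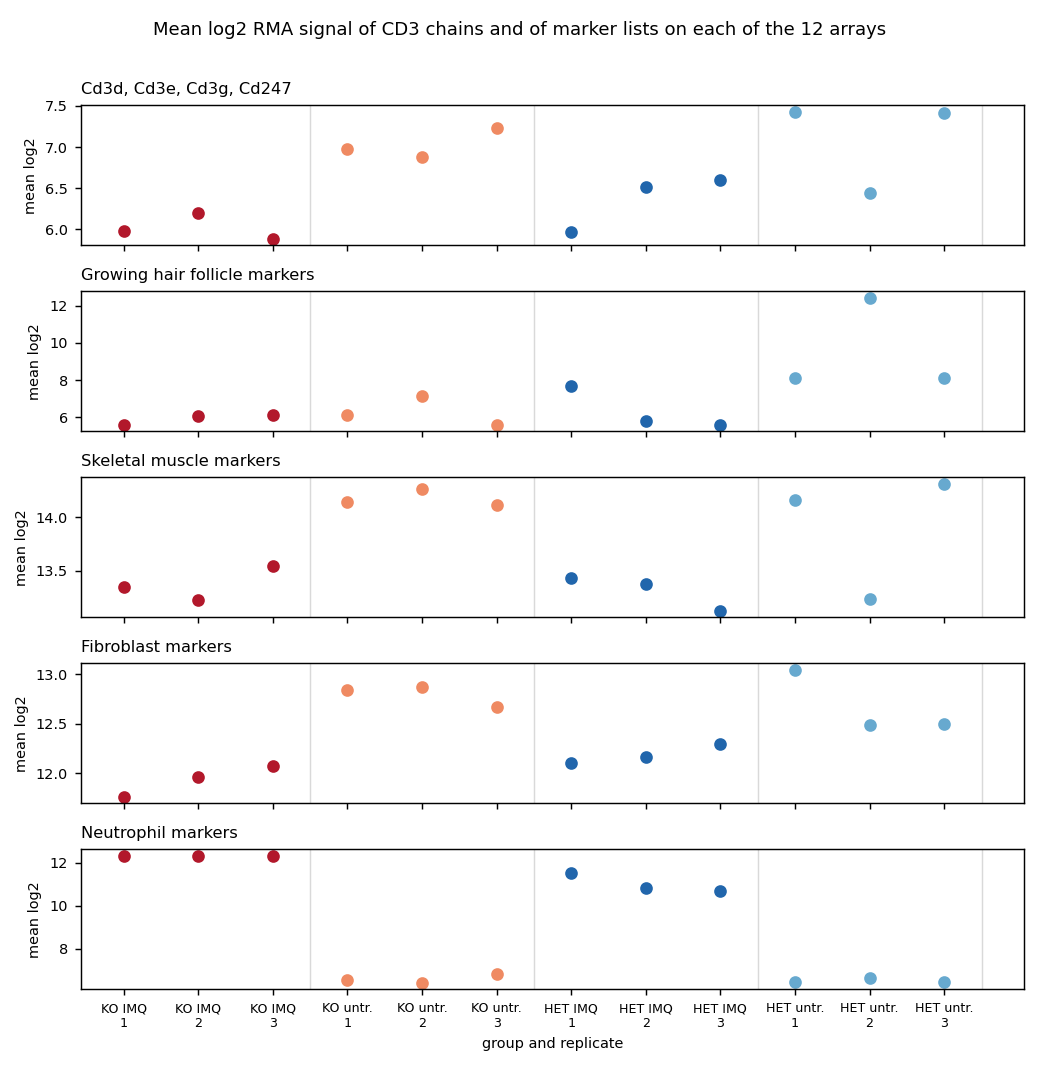
Mean log2 RMA signal (vertical axes) of the 4 CD3 chains and of marker lists of other tissues and cells on each array (horizontal axis, by group and replicate). On AhR HET untreated replicate 2 the hair follicle mean is the highest, 12.45, and the CD3 and muscle means are the lowest of their group, 6.44 and 13.23.

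Signals of some other tissue components followed the CD3 chains between groups. The mean of the CD3 chains was 5.88 to 6.20 in AhR KO IMQ, 6.88 to 7.23 in AhR KO untreated, 5.96 to 6.61 in AhR HET IMQ, and 6.44 to 7.43 in AhR HET untreated skin. The mean of 3 skeletal muscle markers was 13.23 to 13.54 in AhR KO IMQ, 14.12 to 14.26 in AhR KO untreated, 13.12 to 13.43 in AhR HET IMQ, and 13.23 to 14.32 in AhR HET untreated skin. It followed the CD3 mean over the 12 arrays with r = 0.789, or 0.557 with group means removed. Over the 11 arrays without AhR HET untreated replicate 2 the muscle values were 0.8 and, with group means removed, -0.725. The likeness of the muscle mean within groups thus rested on that array. The growing hair follicle mean had r = 0.108 with the CD3 mean over all arrays but -0.953 with group means removed. Without AhR HET untreated replicate 2 these values were 0.406 over 11 arrays and -0.869 with group means removed. Within AhR HET IMQ, replicate 1 had a follicle mean of 7.66, against 5.60 to 5.81 in the other 2 arrays, and the lowest CD3 mean.

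The fibroblast mean, from 6 markers of cells that can express Thy1, was 11.76 to 12.08 in AhR KO IMQ, 12.67 to 12.87 in AhR KO untreated, 12.10 to 12.30 in AhR HET IMQ, and 12.49 to 13.05 in AhR HET untreated skin. In the AhR KO response 4 of these 6 were called lower and 1 higher, and in the AhR HET response 3 lower and none higher. Over all genes 12.1% were called lower and 10.6% higher in the AhR KO response, and 3.83% lower in the AhR HET response. With the Gapdh covariate Col1a1 (-1.11, adjusted p = 0.0774 from limma) and Pdgfra (0.88, adjusted p = 0.0811) lost their calls in the AhR KO response. Col1a2 (-0.57, adjusted p = 0.0681) and Dpt (-0.88, adjusted p = 0.0586) lost theirs in the AhR HET response. The Langerhans cell mean, from Cd207 and Epcam, was 8.76 to 9.27 in AhR KO IMQ, 10.05 to 10.36 in AhR KO untreated, 9.25 to 10.14 in AhR HET IMQ, and 9.97 to 10.39 in AhR HET untreated skin. Over the 12 arrays the Langerhans cell mean followed the CD3 mean with r = 0.854, or 0.647 with group means removed. For the fibroblast mean these values were 0.84 and 0.372. Without AhR HET untreated replicate 2 the values with group means removed were 0.726 for Langerhans cells and 0.055 for fibroblasts. The part of these components in the members' differences was not tested.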

How the data were processed

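Total RNA of snap-frozen whole mouse skin was measured on 12 Affymetrix arrays, and the labels place each in 1 of 4 groups. What the authors deposited is a table of log2 values, made by RMA with affy for R (version: not given in the sources used here). This method subtracts background, brings all arrays to a common distribution and joins a set's probes into a single value, so a change shared by most genes is removed. No raw intensities were used. The number of arrays limits the precision, and the median signal lay between 7.38 and 7.56 on all of them.

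Of 45101 probe sets, 64 controls, 932 annotated to several genes and 9160 without a symbol were left out. The remaining 34945 stood for 18193 genes, each read from its brightest probe set on average across the 12 arrays, with no filter on dim genes. A model with a mean for each of the 4 groups (8 residual and 4.44 prior degrees of freedom) was run in limma 3.58.1 under R 4.3.3, using lmFit followed by eBayes, and p-values were adjusted over all genes by Benjamini-Hochberg in each of 5 comparisons. The methods of the study used RankProd, which was not run; a rank product with 100 permutations, coded here, was an alternative. The other alternatives left out each array in turn, changed the threshold, the probe sets, the filter, the scaling or the variance model, or added array weights, a replicate block or the Gapdh 3′ minus 5′ difference. Scripts were tested on simulated data. Promoters were searched in Python 3.11.15 with the RefSeq table of GRCm38.p6.

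The text names all 10 members, in each comparison up to 4 called genes of each list by size of change or up to 2 where none was called, the 5 genes most like the CD3 mean, Ahr and the Gapdh controls. Outside this rule it names other granzymes, Prf1, Klrc1, Cd28 and Trgv4, chosen after their values were seen. The members and the lists were chosen with earlier results of these data known. Some genes of the lists are not reported here.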

Additional observations from a re-analysis of the deposited data

Results flagged for a closer look

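The response of Gzmc to IMQ differed between the genotypes by the test of the difference itself (-3.78, AhR KO minus AhR HET, standard error 0.79, adjusted p = 0.0409 from limma over all genes). Gzmc fell by 3.00 in AhR KO skin and had a difference of 0.78 in AhR HET skin (adjusted p = 0.437). All 3 AhR KO IMQ arrays lay below all 3 AhR KO untreated arrays, while in AhR HET skin the treated arrays lay above untreated replicates 2 and 3 and below untreated replicate 1. The call held in 11 of 24 alternatives, with adjusted p between 0.000974 and 0.299 over all of them, and its direction was the same in each.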

How the results depend on the processing

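Of 1280 member values under the alternatives, 1215 kept their side of the threshold, 45 lost a call and 20 gained one, and no called value changed direction. Differences that were not called changed sign 28 times. In the AhR KO response Cd3g was called in all 26 alternatives, Gzmc and Gzmb in 25 each, Cd2 in 23 and Cd3d in 18. In the AhR HET response Gzmb was called in 26, Thy1 in 25 and Cd3g in 8. Gzmb missed in the rank product for AhR KO (estimated false positive share 0.0121, threshold 0.01), and Thy1 for AhR HET (0.0179).

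The number of members called, 0 in untreated skin, 0 under IMQ, 5 in the AhR KO response, 3 in the AhR HET response and 1 for the difference of responses, moved as follows. The rank product called 1 in untreated skin (Gzmc), 1 under IMQ (Gzmc), 2 in the AhR KO response and 1 in the AhR HET response, and gave no value for the difference of responses. Array weights called 3 under IMQ, with 11.1% of all genes, and the groups compared alone called 2, with 6% (3.98% in the main values). The Gapdh covariate called 3, with 12.2% of all genes, and AhR KO IMQ replicate 3 alone called 2, with 7.94%, in the AhR KO response (22.7% in the main values). For the difference of responses, an adjusted p under 0.01, a variance trend, the Gapdh covariate and AhR KO IMQ replicate 3 alone each called 0. Leaving out 1 array at a time gave 0 to 1 in untreated skin, 0 to 3 under IMQ, 4 to 5 in the AhR KO response, 2 to 7 in the AhR HET response and 0 to 1 for the difference of responses. The cause of these shifts was not tested.

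Arrays with the same replicate number did not deviate together in every comparison (r between -0.184 and 0.316), so the numbers were not taken to pair the samples. In the AhR KO response, though, the same-number r (0.155, 0.064 and 0.148) lay above the highest r with other numbers (-0.014, 0.056 and -0.048). In untreated skin replicates 1 and 3 did so too, in the AhR HET response only replicate 3, and under IMQ none. With a replicate block the counts were 0 in untreated skin, 0 under IMQ, 5, 2 and 1, and the call lost was Cd3g in the AhR HET response (adjusted p = 0.0614). With 3 arrays a group, a single array decides several calls, AhR HET untreated replicate 2 most often.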

Other observations

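Trgv4, a gamma chain variable segment and a gene chosen here after its values were seen, had 5.32, 5.43 and 5.58 in AhR KO IMQ, 6.42, 6.20 and 6.62 in AhR KO untreated, 6.24, 6.44 and 6.61 in AhR HET IMQ, and 8.23, 6.31 and 7.78 in AhR HET untreated skin. It was lowest in AhR KO IMQ skin, without overlap with the other groups, and it was not called in any comparison. The differences were -0.97 in the AhR KO response (adjusted p = 0.0634) and -1.01 in the AhR HET response (adjusted p = 0.0986), and AhR KO minus AhR HET was -0.99 under IMQ (adjusted p = 0.143) and -1.03 in untreated skin (adjusted p = 0.719, all from limma).

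Cd3g and its neighbour Cd3d did not keep a constant distance. The log2 signal of Cd3g minus that of Cd3d on the same array was -0.77, -1.63 and -1.48 in AhR KO IMQ, 0.02, 0.21 and 0.10 in AhR KO untreated, -0.36, 0.13 and 0.19 in AhR HET IMQ, and 1.21, 0.45 and 1.10 in AhR HET untreated skin. Its size on 1 array has no meaning, since the probe sets differ, and only the shift between groups does. AhR KO arrays lay below AhR HET arrays in both conditions without overlap, and IMQ arrays below untreated arrays in both genotypes. This comparison was chosen after the values were seen and was not tested.

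Of the other cell type lists, the 3 B cell markers had 0 calls in the AhR KO response and 1 in the AhR HET response, Cd79b (1.51, adjusted p = 0.00305 from limma). Over all genes 22.7% were called in the AhR KO response and 9.05% in the AhR HET response. The 4 macrophage markers included Adgre1, called higher in the AhR HET response (2.24, adjusted p = 0.000703 from limma). Adgre1 was also called lower in AhR KO than in AhR HET skin under IMQ (-1.60, adjusted p = 0.0119). Csf1r was called lower in the AhR KO response (-0.87, adjusted p = 0.0187). With the Gapdh covariate the Adgre1 call between the genotypes (-1.19, adjusted p = 0.449) and the Csf1r call (-0.80, adjusted p = 0.147) were lost. With AhR KO IMQ replicate 3 as the sole array of its group these differences were -1.25 and -0.73. The Adgre1 call in the AhR HET response stayed with the covariate (2.14, adjusted p = 0.00193). Of 3 basal keratinocyte markers, Krt14 lay between 14.64 and 14.84 on the IMQ arrays, where the highest signal of any probe set was 14.75 to 14.92, so no difference is given for it. Krt5 was called higher in the AhR HET response (0.70, adjusted p = 0.0349 from limma) and was not called in the AhR KO response. That call was lost without AhR HET untreated replicate 2 (0.57, adjusted p = 0.0751). Krt15 fell in AhR KO (-3.35, adjusted p = 0.000225) and AhR HET skin (-1.57, adjusted p = 0.0444). With the Gapdh covariate Krt15 lost its call in AhR HET skin (-1.62, adjusted p = 0.0641) and kept it in AhR KO skin.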
